A study of Mus musculus with 10 samples.

Results

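Replication-dependent histone genes encode the core histones H2A, H2B, H3 and H4 and the linker histone H1, and were described here in the whole hippocampus of mice with damaged meningeal lymphatic vessels. They were chosen by symbol, as all protein-coding genes whose names begin with Hist1h, Hist2h, Hist3h or Hist4h in the GENCODE annotation of GRCm38. The rule itself uses no measured value, but it was set with earlier results of these data known. The rule gave 67 genes (6 H1, 18 H2A, 18 H2B, 12 H3 and 13 H4), of which 57 had a row in the table of 28871 genes and 52 passed the filter on low counts. The 10 genes with no row (Hist1h2ba, Hist1h2bh, Hist1h2bm, Hist2h2bb, Hist1h3d, Hist1h3f, Hist1h3g, Hist1h3h, Hist1h3i and Hist2h3c1) were not analysed here. The 5 genes in the table that were not tested, Hist1h1t, Hist1h2aa, Hist1h2ah, Hist1h2an and Hist1h2ao, had at most 27 counts in any sample.

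The samples were wild-type male C57BL/6J mice of 2 months. The Visudyne group (samples 3, 6, 9, 12 and 15) received Visudyne, an injectable form of the photosensitizer verteporfin, into the cisterna magna, the fluid space behind the cerebellum. Red light of 689 nm was then shone over the intact skull to ablate the lymphatic vessels of the meninges. The vehicle group (samples 1, 4, 7, 10 and 13) received vehicle in place of Visudyne and the same light, both groups had the procedure again after 2 weeks, and tissue was taken 2 weeks later. The comparison asks whether histone mRNA in the hippocampus differed after meningeal lymphatic ablation. The labels do not state that each of the 5 samples per group is a separate animal, so p-values measure the spread between these samples, which may be technical.

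Replication-dependent histone mRNAs are made mainly in S phase, when new DNA has to be packaged. They have no introns in their classical form and usually end not in a poly(A) tail but in a short conserved hairpin, the stem-loop, which the stem-loop binding protein Slbp recognises. Most cells of the adult hippocampus no longer divide, apart from glial precursors and neural progenitors of the dentate gyrus, and non-dividing cells can make polyadenylated histone transcripts that run past the hairpin. The libraries were made with a total RNA kit, so transcripts with and without a tail could both be counted.

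The hairpin is shown because it is what the 5 classes share at the RNA level and because its stem separates H4 from the others. It was searched as a stem of 6 paired bases beginning GG around a loop of 4 bases with T as the first and the third, on the sense strand, within 200 bases after the stop codon of annotated GENCODE transcripts. The sequences below are the 16 bases of the hairpin in capitals with 5 bases on each side, for an abundant member of each class and, as an example of the other H4 stem, for the less abundant Hist1h4j.
Hist1h1c (H1): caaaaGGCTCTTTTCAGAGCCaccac
Hist3h2a (H2A): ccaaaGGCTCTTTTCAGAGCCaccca
Hist1h2be (H2B): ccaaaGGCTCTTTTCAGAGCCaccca
Hist1h3e (H3): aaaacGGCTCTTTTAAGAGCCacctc
Hist1h4d (H4): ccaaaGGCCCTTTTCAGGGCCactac
Hist1h4j (H4): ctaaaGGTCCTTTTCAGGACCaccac

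Of the 52 genes with at least 16 annotated bases after the stop codon, 46 (88.5%) held a hairpin, against 14 of 18546 other protein-coding genes (0.0755%) with at least 200 such bases. The histone variant gene H2afx was among those 14. When the same 200 bases were required of the histone genes, 21 of 25 (84%) held it. The hairpin began 22 to 59 bases after the stop codon, with a median of 32. The 16-base form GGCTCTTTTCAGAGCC occurred in 26 genes of the H1, H2A, H2B and H3 classes, and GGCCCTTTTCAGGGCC in 7 genes, all of them H4. The fourth base of the stem was C in 12 of 12 H4 genes and T in 34 of 34 genes of the other classes. Hist1h1a, Hist1h2bc, Hist1h2bq, Hist1h2br, Hist2h2be and Hist2h3b had at least 16 annotated bases but no such letters in the part searched. In Hist2h3b only 37 bases and in Hist1h1a only 48 were annotated, so a hairpin beyond these ends would be missed. The other 15 genes had fewer than 16 annotated bases after the stop codon.

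An annotated transcript ran more than 10 bases past the hairpin in 44 of the 46 genes. Annotated sequence after the stop codon reached 4931 bases in Hist1h1d, 2515 in Hist4h4 and 822 in Hist1h4d, but only 93 in Hist1h4h. Levels between genes were therefore compared per kb of annotated exon, and the order was checked per kb of coding sequence, because counts from extended and hairpin-ended forms cannot be separated in a table of counts per gene.

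**Figure D1:**
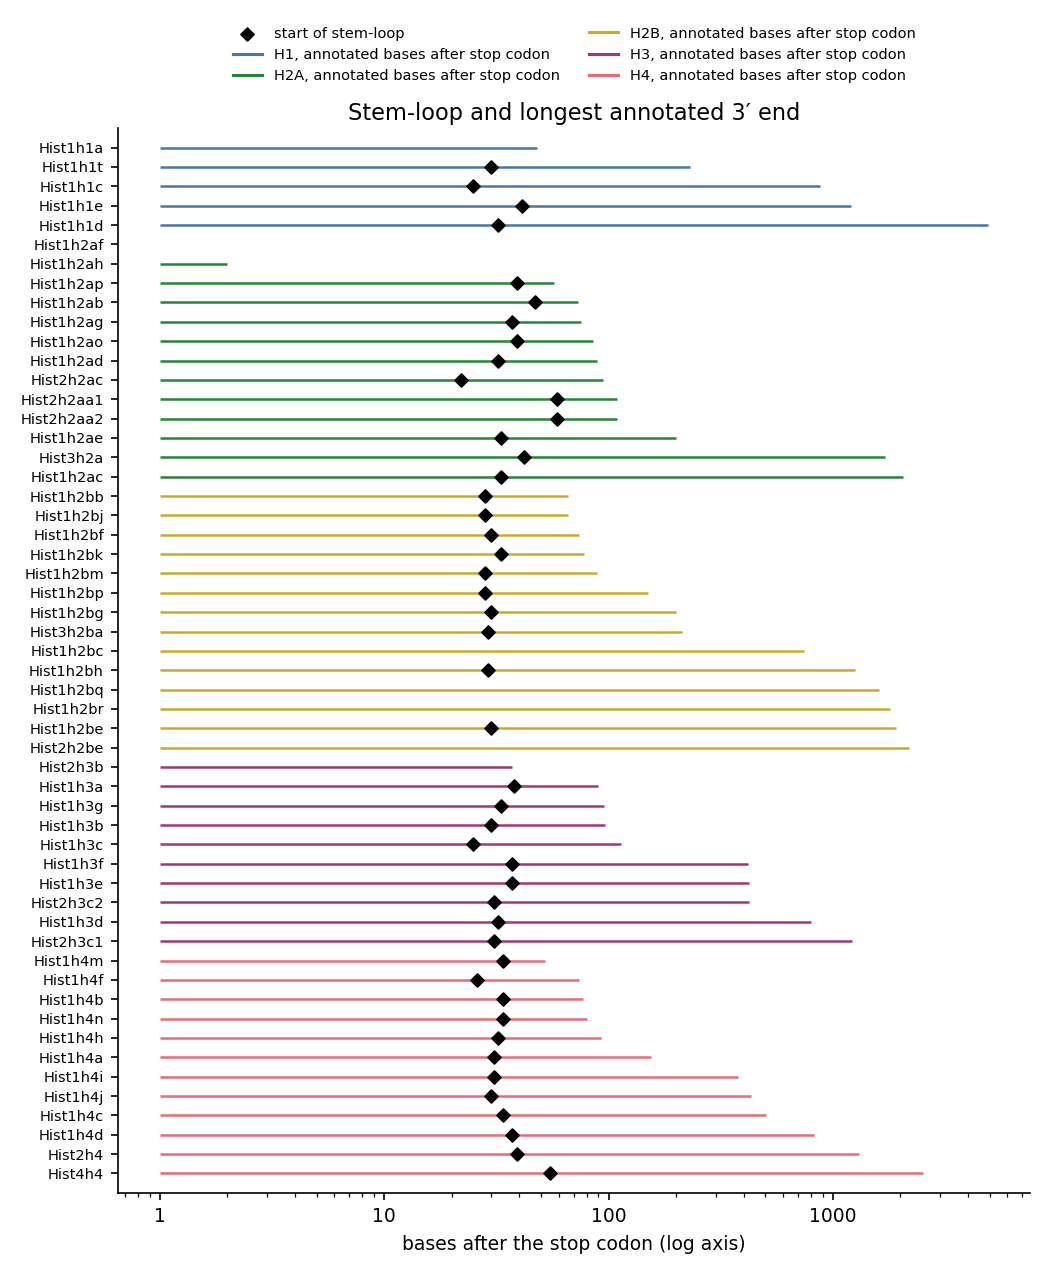
Annotated bases after the stop codon (log axis) for each histone gene with at least 1 such base; each line runs to the longest annotated end, coloured by class, and the diamond marks the first base of the hairpin. The hairpins fall in a narrow band between 22 and 59 bases, while the annotated ends range up to 4931 bases.

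No replication-dependent histone gene passed the test for a difference between Visudyne and vehicle. By edgeR's quasi-likelihood test, 0 of 52 genes were higher and 0 were lower at an adjusted p under 0.05, and every adjusted p was 0.9999. The background in the whole table was 0.021% of 19093 genes called higher (4 genes) and 0% called lower (0 genes). At an unadjusted p under 0.05 the histone genes again gave 0 in each direction, against 1.14% of all genes higher and 0.56% lower. DESeq2 called 0 of the 56 histone genes for which it gave an adjusted p, against a background of 0.0564% higher and 0.00752% lower. Limma voom called 0, against 0.021% higher and 0% lower. In none of the 52 genes did the 5 Visudyne samples lie wholly above or below the vehicle samples, as they did in 0.319% of all genes above and 0.115% below. With 52 genes and a background this low, counts of 0 do not set the histone genes apart from the rest.

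The median log2 fold change (Visudyne minus vehicle) of the 52 genes was -0.0063, beside 0.0022 for all genes tested, with 25 positive and 27 negative values. All 52 of the 95% intervals held 0. In 43 of the 52 genes the whole interval lay within 1.5-fold in either direction, which included all 13 H4 genes, all 5 tested H1 genes and all 15 genes with a mean of at least 10 CPM (counts divided by each library's TMM-scaled total, on a shared scale). Among the 37 genes below 10 CPM this was so for 28. In the remaining scarce genes the intervals also held changes larger than 1.5-fold. In bulk tissue, fewer cells of a type and less RNA per cell cannot be told apart.

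**Figure D2:**
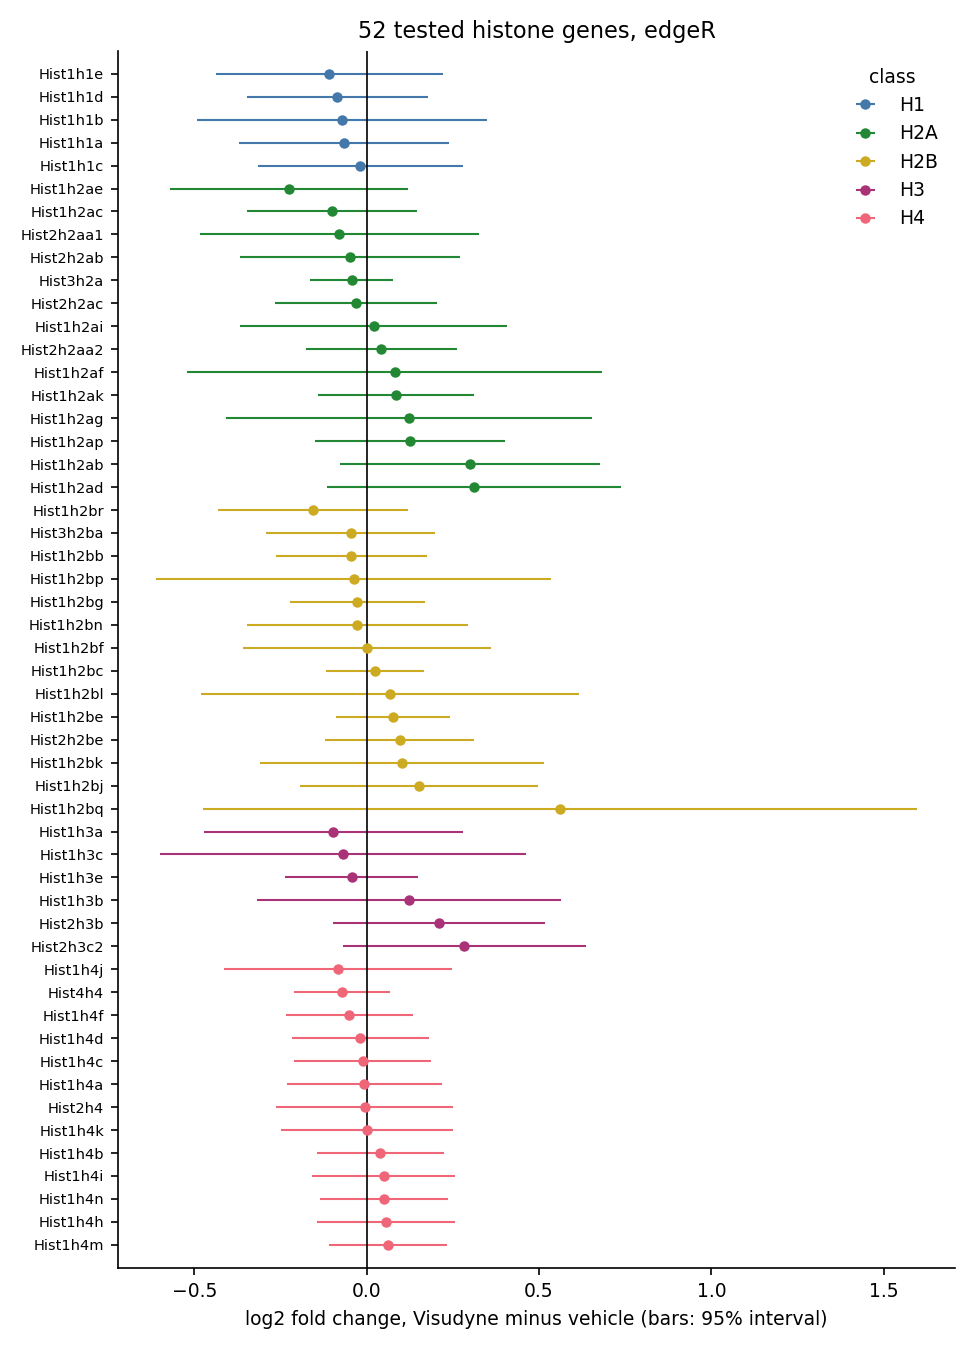
Log2 fold change, Visudyne minus vehicle, of the 52 tested histone genes from edgeR (points) with 95% intervals (bars), grouped by class. Every bar crosses 0; the H4 bars lie between -0.415 and 0.257, and the bar of the scarce Hist1h2bq is the widest.

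The H4 genes gave the most histone mRNA. H4 is the core histone that pairs with H3, and all 13 H4 genes encode a single protein of 103 residues. They made up 45.99% of the summed CPM of the 57 genes, with H2A at 18.52% and H1 at 14.55%. H2B, for which 14 of 18 genes had a row, stood at 17.57%, and H3, for which 6 of 12 had a row, at 3.367%. Hist1h4d, on chromosome 13 (23581598 to 23582735, GRCm38, plus strand), had the highest CPM of all members. It measured 64.86, 50.02, 44.99, 48.63 and 53.46 CPM in vehicle 1, 4, 7, 10 and 13, and 53.4, 53.55, 49.63, 56.64 and 45.6 CPM in Visudyne 3, 6, 9, 12 and 15. The Visudyne values lay inside the vehicle range, whose top was vehicle 1 and whose bottom was vehicle 7. Its log2 fold change was -0.02 (SE 0.09, 95% interval -0.22 to 0.18, edgeR adjusted p = 0.9999).

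Hist1h4c measured 51.92, 40.94, 34.54, 38.03 and 43.73 CPM in the vehicle samples and 43.34, 42.17, 40.06, 43.09 and 39.02 CPM in the Visudyne samples, in the same order. Hist1h4h, on chromosome 13 (23531050 to 23531519, plus strand), measured 44.17, 33.66, 29.95, 36.61 and 41.83 CPM against 40.79, 38.71, 37.75, 39.43 and 36.98 CPM. In both genes the 5 Visudyne samples again fell within the vehicle range, and vehicle 1 and vehicle 7 were its ends. The log2 fold changes were -0.01 for Hist1h4c (SE 0.09) and 0.06 for Hist1h4h (SE 0.09), each with an edgeR adjusted p of 0.9999. Per kb of exon the order turned: Hist1h4h had the highest level of all members, 80.82 CPM per kb, then Hist1h4c at 50.83, Hist1h4m at 47.9, the H2A gene Hist2h2aa2 at 46.0 and Hist1h4d at 45.76. Per kb of coding sequence Hist1h4d led with 168.5, then Hist1h4c with 134.9 and Hist1h4h with 122.9 CPM per kb.

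The remaining H4 genes ran from 3.447 CPM (Hist1h4j) to 19.26 CPM (Hist1h4m), as means over the 10 samples. Hist4h4, alone on chromosome 6 (136801553 to 136804415, minus strand), had the smallest p of the class among lower genes and varied little. It measured 9.041, 8.656, 9.574, 7.946 and 9.186 CPM with vehicle and 8.258, 8.395, 8.1, 8.617 and 8.905 CPM with Visudyne, which overlapped. The log2 fold change was -0.07 (SE 0.06, unadjusted p = 0.2865, edgeR adjusted p = 0.9999).

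**Figure D3:**
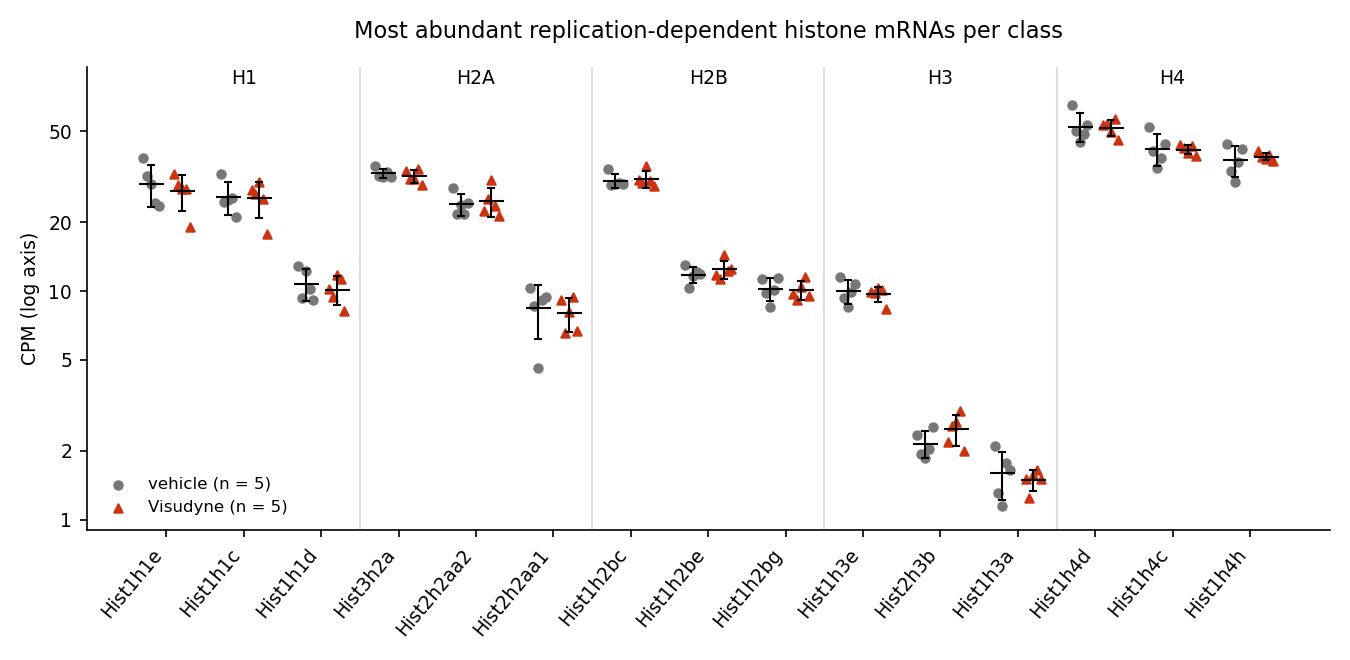
CPM (log axis) of the 3 most abundant genes of each class in every sample; grey circles are vehicle and red triangles Visudyne, with samples in numerical order from left to right, and black bars give the mean and SD (n = 5 per group). The groups overlap in all 15 genes; vehicle 1 is the highest point of all 3 H4 genes and Visudyne 15 the lowest point of all 3 H1 genes.

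Linker histone H1 binds the nucleosome where DNA enters and leaves it, and its genes encode 6 different proteins. All 5 tested H1 genes had negative log2 fold changes, with a median of -0.071, and none passed the test. Hist1h1e measured 38.24, 31.84, 29.5, 24.19 and 23.49 CPM in vehicle 1, 4, 7, 10 and 13, and 32.37, 29.16, 27.93, 28.02 and 19.06 CPM in Visudyne 3, 6, 9, 12 and 15. Hist1h1c measured 32.48, 24.44, 25.11, 25.52 and 21.16 CPM against 27.78, 26.55, 29.87, 25.2 and 17.69 CPM. The groups overlapped in both genes, with vehicle 1 the highest sample and Visudyne 15 the lowest. Their log2 fold changes were -0.11 (SE 0.15) and -0.02 (SE 0.14), each with an edgeR adjusted p of 0.9999. Hist1h1d, at 10.77 ± 1.71 CPM with vehicle and 10.16 ± 1.43 CPM with Visudyne (SD, n = 5), had a log2 fold change of -0.09. Its level between genes depends on the length used, 1.409 CPM per kb of its exon model of 7425 bases and 15.78 per kb of coding sequence. The germ cell gene Hist1h1t was nearly silent, with 1 to 5 counts per sample.

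The negative sign of most H1 genes was lost when vehicle 1, Visudyne 15 or both were left out. Summed over the H1 genes, vehicle samples measured 91.07, 71.6, 72.98, 65.53 and 59.44 CPM and Visudyne samples 77.13, 70.66, 76.02, 71.12 and 48.97 CPM, so that vehicle 1 was 1.860 times Visudyne 15. Without vehicle 1, 4 of the 5 H1 genes had positive log2 fold changes (median 0.005). Without Visudyne 15, 3 of the 5 did (median 0.026), and without both samples all 5 did (median 0.117). Vehicle 1 had the highest vehicle sum and Visudyne 15 the lowest Visudyne sum, so leaving them out raises the values in any case. With all 10 samples kept and the sample number as covariate, 3 of the 5 were also positive (median 0.009).

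H2A pairs with H2B in the nucleosome, and 9 of the 18 H2A genes encode the same protein. In the 14 H2A genes tested, log2 fold changes were positive in 8 and negative in 6, around a median of 0.031. Hist3h2a, on chromosome 11 (58954685 to 58956830, plus strand), was the steadiest member with an SD of log2 CPM of 0.082 over the 10 samples. It measured 35.35, 31.78, 31.68, 33.05 and 31.53 CPM with vehicle and 33.58, 30.76, 30.81, 34.13 and 29.19 CPM with Visudyne. The ranges overlapped, although 3 of the 5 Visudyne values lay below every vehicle value, and the log2 fold change was -0.04 (SE 0.06, 95% interval -0.17 to 0.08, edgeR adjusted p = 0.9999).

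Hist2h2aa1 and Hist2h2aa2 on chromosome 3 encode the same protein. Of the 31-base words of Hist2h2aa2, 100% also occur in a transcript of another gene, and of those of Hist2h2aa1, 89.7%, so the estimated counts split reads that fit both. Hist2h2aa1 measured 10.35, 8.598, 4.608, 9.152 and 9.392 CPM with vehicle and 9.173, 6.554, 8.066, 9.429 and 6.709 CPM with Visudyne. Vehicle 7 was far below the others, while Hist2h2aa2 was at 23.84 CPM in that sample, inside its vehicle range of 21.68 to 28.18 CPM. The sum of both genes was steadier, 28.44 to 38.53 CPM with vehicle and 28.09 to 38.75 CPM with Visudyne. The SD of log2 CPM of Hist2h2aa1 alone, 0.350, was among the 3 largest.

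In the 14 H2B genes tested, log2 fold changes were positive in 8 and negative in 6, around a median of 0.012. Hist1h2bc, the most abundant, measured 34.23, 29.21, 29.52, 29.77 and 29.27 CPM with vehicle and 30.54, 29.59, 35.24, 30.36 and 28.75 CPM with Visudyne. In each group 1 sample, vehicle 1 and Visudyne 9, stood above 4 close values, and the groups overlapped. The log2 fold change was 0.02 (SE 0.07, edgeR adjusted p = 0.9999). Hist1h2be and Hist1h2bg, which encode the same protein as Hist1h2bc, measured 11.78 ± 0.953 against 12.43 ± 1.16 CPM and 10.24 ± 1.17 against 10.07 ± 0.963 CPM (vehicle against Visudyne, SD, n = 5).

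Hist1h2bq and Hist1h2br have an identical annotated transcript, so their estimated counts also split shared reads. Hist1h2bq had the largest fold change of all members, 0.56 (SE 0.48, 95% interval -0.47 to 1.60, edgeR adjusted p = 0.9999), on 7 to 49 counts per sample. It measured 0.2077, 0.1739, 0.3575, 0.2174 and 0.6811 CPM with vehicle and 0.4319, 0.6833, 0.405, 0.1262 and 0.7842 CPM with Visudyne, with wide overlap. Hist1h2br had the opposite sign, -0.16 (SE 0.13). Summed, the pair measured 2.136 ± 0.326 CPM with vehicle and 2.112 ± 0.258 CPM with Visudyne (SD, n = 5). Over the tested members, the 31 with at least 50% of their words in another gene had a median SD of log2 CPM of 0.233 and a median level of 2.182 CPM. The 21 others had 0.165 and 7.785 CPM, so shared sequence and low level go together here and their parts in the spread cannot be told apart.

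H3 carries many of the tail modifications that mark active and silent chromatin. In the 6 H3 genes tested, 3 log2 fold changes were positive and 3 negative, around a median of 0.039. Hist1h3e supplied 60.29% of the H3 sum and measured 11.52, 9.293, 8.482, 9.883 and 10.71 CPM with vehicle and 9.864, 9.762, 10.31, 10.11 and 8.365 CPM with Visudyne. These overlapped, and the log2 fold change was -0.04 (SE 0.09, edgeR adjusted p = 0.9999). The scarce Hist2h3c2 had the smallest p of all 52 members. It measured 1.693, 1.005, 1.569, 1.226 and 1.283 CPM with vehicle and 1.814, 1.506, 1.738, 1.424 and 1.777 CPM with Visudyne. Vehicle 1 and vehicle 7 lay among the Visudyne values. Its log2 fold change was 0.28 (SE 0.16, unadjusted p = 0.1061, edgeR adjusted p = 0.9999).

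Most of the other members named for a small p were scarce, apart from Hist3h2a and Hist4h4 described above. On the higher side Hist1h2ab measured 1.831 ± 0.185 CPM with vehicle and 2.26 ± 0.577 CPM with Visudyne (log2 fold change 0.30, edgeR unadjusted p = 0.1085). Hist1h2ad measured 1.037 ± 0.261 and 1.289 ± 0.201 CPM (log2 fold change 0.31), and Hist2h3b 2.147 ± 0.291 and 2.487 ± 0.392 CPM (0.21). On the lower side Hist1h2ae measured 1.888 ± 0.417 and 1.616 ± 0.147 CPM (log2 fold change -0.23), and Hist1h2ac 3.636 ± 0.437 and 3.394 ± 0.395 CPM (-0.10). Errors are SD with n = 5 per group, and edgeR gave an adjusted p of 0.9999 for every one, with overlapping groups.

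Summed over all 57 genes, histone mRNA did not differ between the groups beyond the spread of the samples. Vehicle samples measured 571.3, 457.7, 437.8, 464.1 and 491.7 CPM and Visudyne samples 497.3, 479.1, 502.1, 502.8 and 437.6 CPM. The means were 484.5 ± 52.2 and 483.8 ± 27.5 CPM (SD, n = 5), a ratio of 0.998. Vehicle 1 was the highest sample, and vehicle 7 and Visudyne 15 were nearly equal at the bottom. The H4 sum ran from 189.7 CPM in vehicle 7 to 265.9 CPM in vehicle 1, and from 210.5 to 234.7 CPM in the Visudyne samples. By class the ratio of means lay between 0.954 for H1 and 1.017 for H3.

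Vehicle 1 and Visudyne 15 were extreme for many genes of the table. Vehicle 1 was the highest sample in 18.73% of all genes tested, and Visudyne 15 was the lowest in 20.92% and the highest in 23.72%. Vehicle 1 was the highest sample in 22 of the 52 histone genes, among them 5 of 5 H1 and 9 of 13 H4 genes. The lowest sample was vehicle 7 in 17, Visudyne 15 in 15 and vehicle 4 in 11 histone genes. Of all genes, vehicle 7 was lowest in 6.563% and vehicle 4 in 6.552%. Vehicle 1 was lowest in 0 of the 52 histone genes, against 18.53% of all genes. Without vehicle 1 and Visudyne 15, an alternative added after the data were seen, 44 of the 52 log2 fold changes were positive and their median was 0.104, beside 0.0033 for all genes. The sums were then 462.8 ± 22.3 CPM over 4 vehicle and 495.3 ± 11.1 CPM over 4 Visudyne samples, a ratio of 1.070. The samples left out were the vehicle sample of highest and the Visudyne sample of lowest histone sum. A rise was therefore built into this choice, and no conclusion about the treatment is drawn from it. No histone gene passed the test in that fit either.

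Other gene groups were extreme in the same 2 samples. The sum of 5 oligodendrocyte markers was highest in vehicle 1 (2227 CPM) and lowest in Visudyne 15 (1468 CPM), with ranges of 1485 to 2227 CPM with vehicle and 1468 to 2170 CPM with Visudyne. The sum of 11 replication-independent histone genes was also highest in vehicle 1 (551.7 CPM) and lowest in Visudyne 15 (419.7 CPM). The sum of 10 dividing cell markers went the other way, lowest in vehicle 1 (15.3 CPM) and highest in Visudyne 15 (30.74 CPM), with ranges of 15.3 to 25.75 and 16.62 to 30.74 CPM. Of the single markers, 3 of 5 oligodendrocyte genes were highest in vehicle 1, 4 of 10 dividing cell genes were highest in Visudyne 15, and none was listed at 0 in any sample. The sum of 22 DNA replication genes, unlike that of the dividing cell markers, was highest in vehicle 1 (163.5 CPM). In Visudyne 15 it was 146.9 CPM, near its lowest value of 146.1 CPM in Visudyne 6. The part of these groups in the histone values was not tested.

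**Figure D4:**
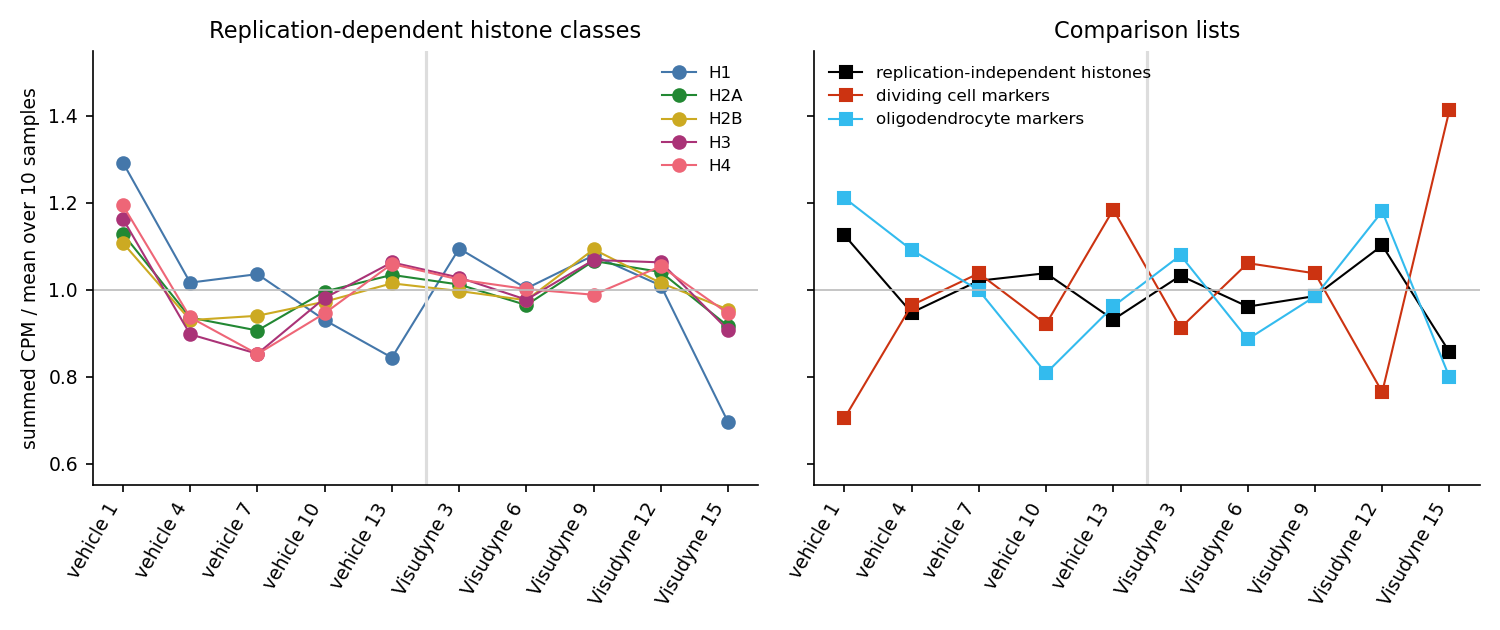
Summed CPM per sample divided by its mean over the 10 samples, for the 5 histone classes (left) and for 3 comparison lists (right); lines only join the points of a class. Vehicle 1 is the highest sample of every histone class, and Visudyne 15 is lowest for H1 (48.97 CPM). The sum of the dividing cell markers runs opposite at both samples (15.3 and 30.74 CPM), with Tyms alone at 4.936 and 14.73 CPM.

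Genes listed as replication-independent histones did not pass the test either, with 0 of 11 called by edgeR and a median log2 fold change of -0.023. Such genes usually supply chromatin outside S phase, but H2afx in this list also holds the hairpin described above. H3f3a and H3f3b, which encode the variant H3.3, measured 115.6 ± 10.4 against 112.2 ± 12.3 CPM and 128.8 ± 10.9 against 123.6 ± 14.5 CPM (vehicle against Visudyne, SD, n = 5). H2afz, the H2A.Z gene, measured 75.99 ± 7.03 and 73.67 ± 6.91 CPM, H2afx 12.81 ± 1.11 and 12.61 ± 0.897 CPM, and the linker variant gene H1f0 67.99 ± 7.29 and 65.66 ± 7.82 CPM. Per kb of exon H3f3b stood at 42.41 and H3f3a at 32.5 CPM per kb, above the leading replication-dependent H3 gene Hist1h3e at 11.76.

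The machinery that makes and ends histone mRNA was present and showed no called change, with 0 of 22 genes passing and a median of -0.0023. Slbp, whose protein binds the hairpin, measured 17.6 ± 1.28 CPM with vehicle and 17.99 ± 1.21 CPM with Visudyne (log2 fold change 0.03). Npat, the coactivator of histone gene transcription, measured 37.21 ± 1.47 and 37.19 ± 2.23 CPM. The U7 snRNP proteins Lsm10 and Lsm11, which act in cleavage after the hairpin, measured 4.114 ± 0.266 and 4.237 ± 0.333 CPM, and 41.74 ± 4.58 and 40.96 ± 2.17 CPM. Casp8ap2, a factor of histone expression, measured 24.95 ± 1.64 and 25 ± 2.53 CPM. Zfp473, a component of the processing complex, measured 2.83 ± 0.645 and 3.046 ± 0.918 CPM. Each of these had an edgeR adjusted p of 0.9999.

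Of 24 histone chaperone genes, 0 passed, with a median of -0.0025. DNA replication genes gave 0 of 21, with a median of -0.061 and 15 negative values. In that list 1 gene, the helicase subunit Mcm6, was below 0.05 before adjustment (log2 fold change -0.19, edgeR adjusted p = 0.9999). Pcna, the sliding clamp of DNA polymerase, measured 30.72 ± 2.42 CPM with vehicle and 29.17 ± 2.41 CPM with Visudyne, and Mcm2 4.014 ± 0.355 and 3.924 ± 0.504 CPM. The dividing cell markers gave 0 of 9 called, with Mki67 at 4.788 ± 0.941 and 5.048 ± 1.08 CPM and Top2a at 2.434 ± 0.194 and 2.583 ± 0.252 CPM.

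Markers of hippocampal principal neurons were present in the labelled tissue: all 12 were tested and summed to 1331 to 1555 CPM in every sample, with 0 of 12 called. Of the lists for other cells, fibroblast markers gave 1 of 8 called, Col1a1 (log2 fold change 1.18, edgeR adjusted p = 0.04851), and the blood, microglia, oligodendrocyte and choroid plexus lists gave 0. The Col1a1 call was lost with upper-quartile factors (edgeR adjusted p = 0.05961), with the filter of 1 CPM (0.05001) and without vehicle 1 and Visudyne 15 (0.07321). When 1 sample was left out it held only without vehicle 1 or vehicle 4, with an adjusted p of 0.02754 to 0.2785 over the single omissions. Before adjustment, 3 of the 8 fibroblast genes were higher at a p under 0.05, Col1a1, Col1a2 and Col3a1, and in these the groups did not overlap. Likewise 1 blood gene was higher and 1 choroid plexus gene was lower at a p under 0.05 in edgeR, and 0 were in the replication-independent histone, processing, chaperone, dividing cell, neuron, microglia and oligodendrocyte lists. DESeq2 and limma voom also called 0 in every comparison list except that of the fibroblasts, where they called 2 and 1. Totals per sample ran from 51165271 to 68895223 estimated counts, of which the histone genes took 22040 to 35767.

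Histone genes lie in clusters. The 54 genes on chromosome 13 (between 21715763 and 23934851), 46 of them in the table, gave 77.81% of the summed CPM. The 10 genes on chromosome 3 gave 11.79%, the 2 on chromosome 11 gave 8.61% and Hist4h4 on chromosome 6 gave 1.79%. The median log2 fold changes of these clusters lay between -0.071 and 0.018, and no cluster held a called gene.

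Many H2A and H2B genes are divergent neighbours that share the sequence between their starts. Both genes of 11 such pairs were in the table, with 176 to 302 bases between annotated starts. Levels within a pair were not equal. The H2B gene was higher per kb of exon in 6 pairs and the H2A gene in 5, and 9 of the 11 kept this order per kb of coding sequence. The order turned in Hist1h2ao with Hist1h2bq and in Hist2h2ac with Hist2h2be. Per kb of exon Hist1h2ac and Hist1h2bc differed most, with 1.416 against 26.51 CPM per kb of exon, 18.72-fold, and 8.997-fold per kb of coding sequence. Hist1h2ak and Hist1h2bn differed least per kb of exon, with 6.825 against 4.162 CPM, 1.64-fold, and neither was called. Per kb of coding sequence both ends of this ranking of 11 changed. Hist1h2ah and Hist1h2bk then differed most, 17.39-fold, and Hist2h2ac and Hist2h2be least, 1.225-fold. Hist1h2ah was below the filter, with 3 to 13 counts per sample and 91.2% of its 31-base words in another gene. Among the 8 pairs with both genes tested, Hist1h2ac and Hist1h2bc still differed most per kb of coding sequence, 8.997-fold.

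**Figure D5:**
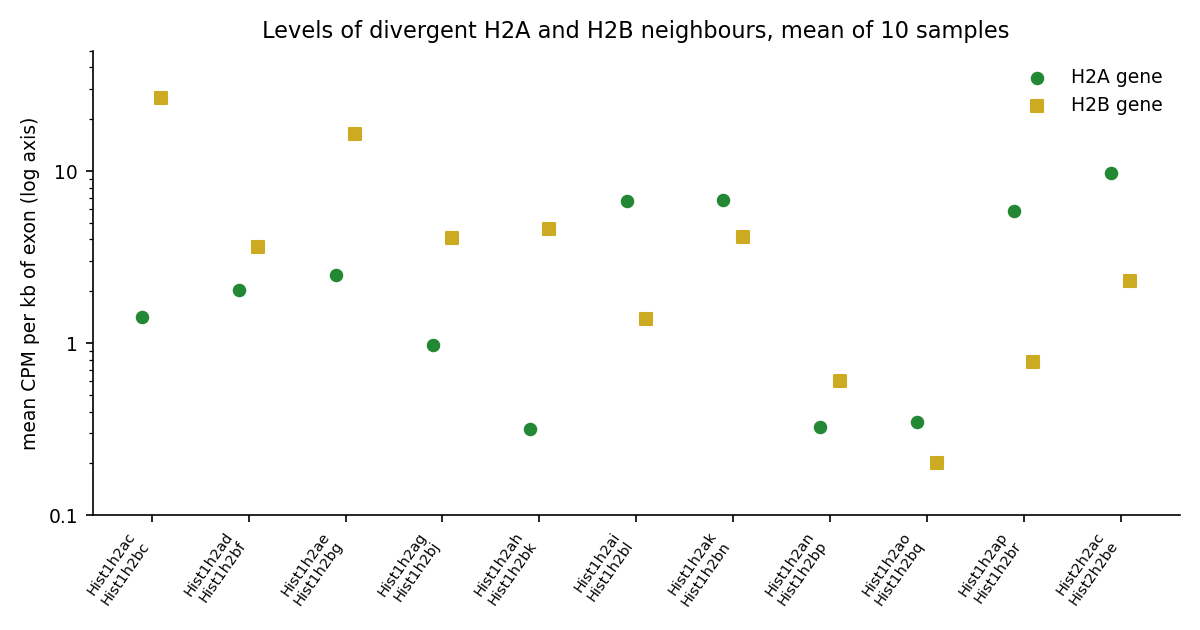
Mean CPM per kb of annotated exon over the 10 samples (log axis) for the 11 divergent neighbours, H2A genes as circles and H2B genes as squares. The widest gap is between Hist1h2ac at 1.416 and Hist1h2bc at 26.51, and the narrowest between Hist1h2ak at 6.825 and Hist1h2bn at 4.162. Levels are estimates, and those of genes with much shared sequence depend on how reads were split.

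The sequences between the starts are given for the pairs that differed most and least per kb of exon. Both genes of a pair share them, while their estimated levels differ. They come from the RefSeq promoter table of GRCm38.p6, which matched 62 of the 67 genes. Capitals mark CCAAT and TATAAA on either strand.
Hist1h2ac to Hist1h2bc, chr13:23683949-23684198, minus strand: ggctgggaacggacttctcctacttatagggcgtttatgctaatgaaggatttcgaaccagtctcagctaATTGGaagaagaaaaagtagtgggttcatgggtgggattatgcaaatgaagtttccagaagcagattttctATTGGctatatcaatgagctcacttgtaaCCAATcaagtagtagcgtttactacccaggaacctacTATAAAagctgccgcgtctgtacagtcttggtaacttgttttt
Hist1h2ak to Hist1h2bn, chr13:21753828-21754122, plus strand: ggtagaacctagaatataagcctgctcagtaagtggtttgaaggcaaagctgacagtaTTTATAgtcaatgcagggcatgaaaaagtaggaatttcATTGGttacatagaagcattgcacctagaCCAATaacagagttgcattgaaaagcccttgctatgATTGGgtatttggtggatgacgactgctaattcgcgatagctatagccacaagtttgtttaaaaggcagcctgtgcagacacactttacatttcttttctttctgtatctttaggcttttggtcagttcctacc

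Each of these sequences held CCAAT 3 times and TATAAA once, counting both strands, so the number of these letters did not differ between these pairs. CCAAT is the core bound by the factor NF-Y, and TATAAA is the TATA box core. Over all 62 genes with a promoter, CCAAT was present in the 250 bases before a start in 51 (82.3%), against 37.5% of all genes, and TATAAA in 29 (46.8%), against 14.3%. CCAAT was present in 6 of 6 H1, 18 of 18 H2A, 16 of 16 H2B and 8 of 10 H3 promoters, but in 3 of 12 H4 promoters. Divergent H2A and H2B neighbours share the sequence between their starts, so the same letters can be counted for both genes. These promoters are therefore not all independent.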

How the data were processed

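Libraries of 10 hippocampus samples were made from total RNA with strand information, per the labels' protocols. The deposited values are estimated counts for each Ensembl gene. The submitters' processing notes name Salmon, FastQC and mm10. Which versions and annotation release were used is not stated there. Salmon splits reads that fit several transcripts, so near-identical histone genes are uncertain singly. The deposited counts are whole numbers. Gene models came from GENCODE M21, and 307 identifiers without a match held 0.134% of counts.

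Groups follow the treatment label. Groups were compared with edgeR's quasi-likelihood test (4.0.16, R 4.3.3) on 19093 genes, with TMM, filterByExpr, Benjamini-Hochberg adjustment over all genes and a threshold of 0.05. DESeq2 1.42.0, limma voom 3.58.1, other scalings, filters and omitted samples were alternatives. The SE was derived as the size of edgeR's log2 fold change divided by the square root of its F statistic. Intervals are at 95% and were built from this SE with the t distribution, so both are approximate. In simulated data for Visudyne against vehicle on 19093 genes, 200 genes were changed by design. Of these, 61.2% of genes changed 1.5-fold, 79.1% changed 2-fold and 89.4% changed 3-fold were called, and 5 of 158 calls were false. The real comparison called only 4 genes, and with fewer calls the adjustment is stricter. These shares may therefore overstate how often a change of that size would be called in the real data.

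Named were the 3 most abundant genes per class, the 5 of smallest p per direction, the 3 of largest SD, the top of each cluster, the extreme divergent pairs, fixed genes of the comparison lists and the 2 of smallest p of each list. Members outside this rule that serve as examples were picked with their values in view. The members and lists were chosen with earlier results of these data known. The 3 pseudogenes that match the symbols were left out. CPM per kb used the union of annotated exons.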

Additional observations from a re-analysis of the deposited data

Results flagged for a closer look

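A sample was singled out where its gap to the nearest of the others in its group of 5 exceeded Dixon's critical value of 0.71 of the range. This happened 10 times in 138 groups examined, where chance gives about 1 in 20. Among the members, Hist1h2bc was high in vehicle 1 (34.23 CPM, next 29.77) and in Visudyne 9 (35.24 CPM, next 30.54). Hist1h2ac was high in vehicle 1 (4.409 CPM, next 3.516). Hist1h2ab was low in vehicle 4 (1.507 CPM, next 1.853). Hist1h3e was low in Visudyne 15 (8.365 CPM, next 9.762), and so was the H1 sum (48.97 CPM, next 70.66).

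Among the comparison genes, the linker variant H1fx was low in vehicle 7 (5.383 CPM, next 6.318). The microglial gene C1qa was high in vehicle 1 (29.94 CPM, next 23.96), the myelin gene Mag was high in Visudyne 15 (14.81 CPM, next 5.701), and the choroid plexus gene Ttr was high in vehicle 7 (179.2 CPM, next 16.03).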

How the results depend on the processing

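No histone gene passed in any of 19 alternatives, where the smallest adjusted p was 0.9462 (Hist1h2be, edgeR, without Visudyne 12). The median log2 fold change of the members was -0.038 (without vehicle 7) to 0.068 (without vehicle 1) when 1 sample was left out. It was 0.104 without vehicle 1 and Visudyne 15, an alternative added after the data were seen. These were the vehicle sample of highest and the Visudyne sample of lowest histone sum, so a higher median was built into that choice. Of 26 named members, 15 changed sign in at least 1 alternative, 40 times in all, each with a log2 fold change of at most 0.109 in size in the main analysis. Over all genes the count called higher, 4, became 2 with upper-quartile factors, 19 with the sample number as covariate, 15 with DESeq2, 1 without vehicle 1 and Visudyne 15, and 0 to 4 when 1 sample was left out. The count called lower, 0, became 2 with DESeq2, 1 without vehicle 1 and Visudyne 15, and 0 to 1 when 1 sample was left out. The cause was not tested. No paired analysis was possible because the groups share no replicate numbers. The counts limit the scarce members most, such as Hist1h2bq with 7 to 49 counts per sample.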
